A study of Mus musculus with 6 samples.

Results

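The genes described here are the mouse olfactory receptor genes that had sequencing reads in embryonic stem cells with and without a knockdown of Npm1. They are the rows of the authors' deposited table named Olfr and a number with a mean normalized count above 0, so they were chosen by a measured level. There were 138 such rows among 1355 olfactory receptor rows (10.2%), and the other 1217 had a mean of 0. That mean pools all 6 libraries, so the number of members and their mean levels are a description. The lowest member had a mean of 0.157, which is 1 read in 1 library, and just outside the rule lie the rows with no read at all.

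The cells were E14, a line of mouse embryonic stem cells grown in N2B27 medium with LIF and 2i, which hold naive pluripotency. They received a control siRNA (genotype given as WT) or an siRNA against Npm1 (given as NPM1 knockdown) with harvest 3 days after transfection and 3 samples in each of the 2 groups. Npm1 encodes nucleophosmin, a main protein of the nucleolus, found in its granular component, and the series title asks whether that component is needed for nucleolus-associated domains (NADs) and repressive chromatin. Whether the 3 samples of a group grew as separate cultures is not labelled, so a p-value here covers the spread among these samples alone, and that spread may be technical.

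Olfactory receptors are G protein-coupled receptors of the nasal epithelium, and in mice they form the largest gene family, in clusters on many chromosomes. Each mature olfactory neuron expresses a single receptor allele, while the other copies stay in compact chromatin marked by H3K9 and H4K20 trimethylation. Receptor clusters lie mostly in late-replicating regions near the lamina and nucleolus, which makes the family a common example of silent genes in NADs.

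Members share the coding stretch at the end of the third transmembrane helix and the loop that follows it, by which receptors of this family are recognised. The search pattern was taken from GENCODE transcripts of the family on the sense strand, starting from the 20-base word found in the most receptor genes. Windows with at most 4 mismatches to it were found in 946 genes, and a base was kept where at least 90% of them had it. This gave TNTGANNGNTNNGTNGCNAT, where N is any base. It was present in 69 of 138 members (50%), 634 of 1217 rows with a mean of 0 (52.1%) and 30 of 53986 other genes (0.0556%). Of the 13 members with a mean of at least 10, 8 held it. Sequences of 7 of them are shown because they are among the members with the most reads. The pattern was built from bases most receptors share, so likeness within it does not measure how far whole transcripts can be told apart. Each line is 30 bases long, 5′ to 3′, and the capitals mark the letters covered by the pattern.
Olfr1494: tggccTATGACAGGTATGTGGCCATctgcc
Olfr1491: tggccTATGACAGGTATGTGGCCATctgcc
Olfr1495: tggctTATGACAGATATGTGGCCATctgtc
Olfr701: tggccTATGATAGGTATGTGGCCATttgtc
Olfr985: tggccTATGATCGCTATGTGGCCATctgca
Olfr839-ps1: tggccTATGATCGTTATGTGGCCATttgca
Olfr1564: tgggcTATGACCGCTACGTGGCCATctgtc
Olfr1494 and Olfr1491, in the same stretch of chromosome 19, differed at 0 of the 30 bases, and Olfr839-ps1 and Olfr985, in separate clusters of chromosome 9, at 2.

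Reads were 100 bases long, so the share of 100-base words that a member's transcripts have in common with any other gene's bears on how reads could be assigned. It was above 0 in 71 members and above 10% in 13, with the highest value, 35.8%, in Olfr1373. Among the well-covered members Olfr814 had the highest share, 19.7%, all of it with Olfr815, so the value of Olfr814 is uncertain. Olfr718-ps1, Olfr1494, Olfr1491, Olfr1495, Olfr701 and Olfr985 shared no such word with another gene. Olfr539 shared 6.38%, Olfr1564 6.01%, Olfr90 4.28%, Olfr986 3.1%, Olfr839-ps1 3.0% and Olfr1372-ps1 2.6%. Each of these shared words with several genes, some of them outside the family, so their values are uncertain to that extent. Exons of 3 members overlapped an exon of another gene on the same strand, and those of 7 on the opposite strand. Olfr539 is among the latter, through the receptor pseudogene Olfr540-ps1. The library kit keeps strand, but whether counting used it is not given in the sources used here, so these values are uncertain.

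The deposited table holds no values per library, yet the reads behind each low mean could be recovered. A mean is the average over 6 libraries of reads divided by a scaling factor, and rows with a single read show what 1 read is worth in each library. There were 6 such values, 3 with a negative and 3 with a positive fold change in the authors' deposited table, which put each in a group. All 14183 rows with a mean of at most 60 split into whole reads in exactly 1 way, all 138 members included. In the 9567 of these rows with reads in both groups, the ratio of the recovered reads differed from the log2 fold change of the authors' deposited table by a median of 0.0056 and at most 0.19. Fold changes of the same table were used in the recovery, so this closeness is not a fully separate check. In the 4616 rows with reads in 1 group, the sign matched in 4616. Of these, 1314 had a single read, and the signs of such rows had set the groups. Their match was therefore fixed in advance. Libraries are called a, b and c within each group, in order of their scaling factor, since nothing ties them to the replicate numbers. Values per library are these reads divided by the scaling factors, which ran from 0.923 to 1.06.

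Npm1 fell to 45.3% of control (log2 -1.14, 95% interval -1.29 to -0.996, Benjamini-Hochberg adjusted p = 5.35e-49, from the authors' deposited table); the direction of every ratio was read from this gene, so it is no separate check. All 8 embryonic stem cell markers were tested and 0 of them passed, where 4.30% of all tested genes did, with Tfcp2l1 (mean 23793) and Esrrb (17900) the most abundant by the authors' deposited table. Of 11 markers of the mature olfactory neuron, Cnga2, Ano2 and Rtp1 were at 0 and Omp, Cngb1, Gng13 and Stoml3 had means below 10. The other 4 were tested and none passed: Gnal (mean 308), Adcy3 (229), the channel subunit Cnga4 (134) and Rtp2 (20.7), by the authors' deposited table. The libraries also differed in how many rows had only 1 read, from 149 in Npm1 siRNA library c to 314 in Npm1 siRNA library a, with 155, 196 and 276 in control a, b and c and 224 in Npm1 siRNA b. The part of this in the results was not tested.

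No olfactory receptor gene passed the test for a change after Npm1 siRNA. Of the 138 members, 13 had a mean of at least 10 and were tested, and 0 of 13 were called at an adjusted p under 0.05, where 4.30% of all 14284 tested genes were. Among the 3355 rows with means of 10 to 60, the range of these members, 28 were called (0.835%). At an unadjusted p under 0.05 there was 1 member of the 13, Olfr539, where the share over all tested genes was 16.3%, and over all rows with reads 10.1%. The other 125 members had lower means and were not tested. Standard errors of the 13, worked out from the deposited fold changes and p-values, ran from 0.38 to 0.97 on the log2 scale, with a median of 0.64 against 0.15 over all tested genes. A change smaller than these errors was not detectable at this depth, and changes well above 1 standard error could also go uncalled. Olfr539, at log2 1.43 with a standard error of 0.52, did not pass.

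The summed reads show how little receptor RNA there was. Over all 138 members the recovered reads numbered 3094, and their means summed to 510.5, or 0.00185% of the sum over the table. The 13 members with a mean of at least 10 made up 70.5% of that sum, and the first 5 of them 44.4%. A mean between 1 and 10 was found for 38 members, and below 1 for 87, with a median of 0.711 over all members.

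**Figure D1:**
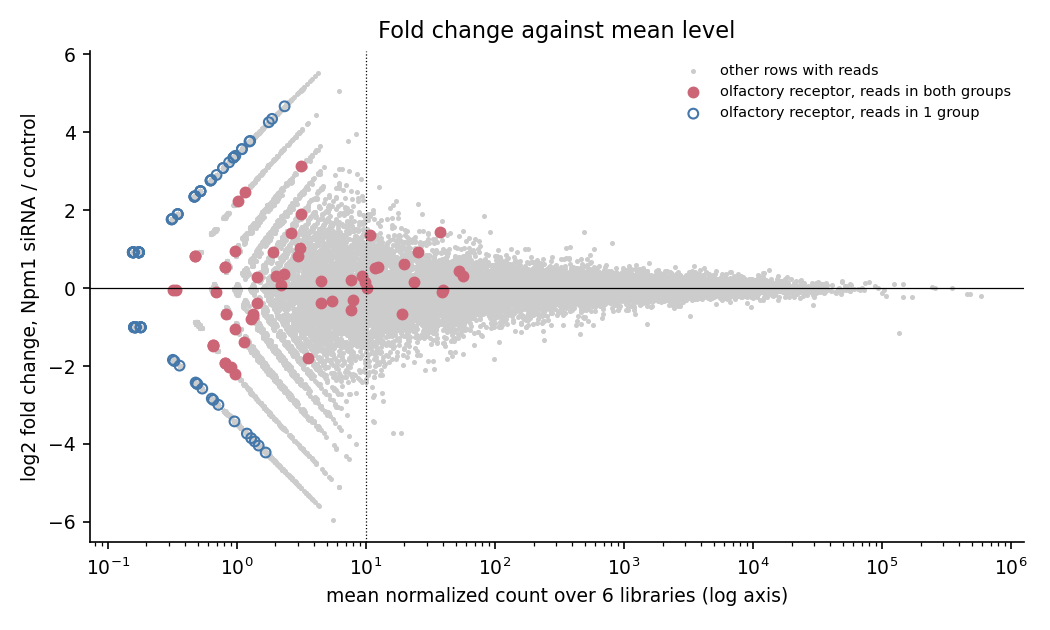
Log2 fold change (Npm1 siRNA over control siRNA) against the mean normalized count on a log axis, both from the authors' deposited table; grey points are all other rows with reads, filled points members with reads in both groups (57) and open circles members with reads in 1 group (81). The dotted line is the mean of 10 above which rows were tested; 13 members lie to its right, and the open circles lie on the outer diagonals that a few reads in 1 group produce.

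Olfr718-ps1 had the highest mean, 57.2, and stands alone on chromosome 5 (143134014 to 143147581, GRCm38), more than 1 Mb from any other receptor row. The files' name marks it as a pseudogene, while GENCODE M21 lists it as protein coding with 4989 exonic bases. Its normalized reads were 54.2, 35.6 and 63.5 in control libraries a, b and c and 46.1, 60.2 and 83.8 in Npm1 siRNA libraries a, b and c. The groups overlapped, with the highest value in Npm1 siRNA c and the lowest in control b. The log2 fold change was 0.31 (standard error 0.40, adjusted p = 0.786) in the authors' deposited table.

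Olfr986, the last receptor gene of a cluster on chromosome 9 (40180920 to 40190134), was next with a mean of 52.6. It had 43.3, 37.5 and 52.9 normalized reads in the control libraries and 53.5, 73.6 and 54.6 in the Npm1 siRNA libraries. Every Npm1 siRNA library lay above every control library, though control c and Npm1 siRNA a were less than 1 normalized read apart. Before scaling their order was the reverse, with 55 reads in control c and 51 in Npm1 siRNA a. The log2 fold change was 0.44 (standard error 0.38, adjusted p = 0.652) in the authors' deposited table. Its neighbour Olfr985 had 41.2, 9.88 and 16.4 in control and 23.1, 33.4 and 17.9 after Npm1 siRNA, with the groups overlapping (log2 0.15, adjusted p = 0.952, the authors' deposited table).

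Olfr814 (chromosome 10, 129871473 to 129879851) and Olfr1494 (chromosome 19, 13739728 to 13750479) had means of 39.6 and 39.3. Olfr814 had 39.0, 29.6 and 52.0 normalized reads in control and 33.5, 40.1 and 43.3 after Npm1 siRNA. Olfr1494 had 59.6, 36.6 and 26.0 in control and 37.7, 30.6 and 45.2 after Npm1 siRNA. In both genes the control libraries held the highest and the lowest of the 6 values. By the authors' deposited table the log2 fold change was -0.04 (standard error 0.44) for Olfr814 and -0.10 (standard error 0.47) for Olfr1494.

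Olfr539 was the member nearest to a call. It lies on chromosome 7 (140659930 to 140678580) and has the longest annotation of the 13, with 11486 exonic bases. Its normalized reads were 13, 12.8 and 35.6 in control (20.5 ± 13.1, SD, n = 3) and 46.1, 46.8 and 73.4 after Npm1 siRNA (55.5 ± 15.6, SD, n = 3). The groups did not overlap, although control c stood well above the other controls and Npm1 siRNA c well above the other knockdown libraries. The log2 fold change was 1.43 (standard error 0.52, 95% interval 0.41 to 2.45, unadjusted p = 0.00593) in the authors' deposited table, and the adjusted p was 0.0942. An exact permutation test, two-sided, gave p = 0.1, the smallest that 3 against 3 libraries allow. Groups that do not overlap always give this value, so the test adds nothing to the lack of overlap.

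Olfr701 (chromosome 7, 106814129 to 106821472) was a further member whose knockdown libraries all lay above the controls. It had 5.42, 9.88 and 2.89 normalized reads in control and 15.7, 10.5 and 20.7 after Npm1 siRNA. Control b and Npm1 siRNA b were the closest, less than 1 normalized read apart. Its log2 fold change was 1.37 (standard error 0.87, adjusted p = 0.459) in the authors' deposited table. In all, 3 of the 13 tested members had every Npm1 siRNA library above every control library, where this held for 5.66% of the 3355 rows with means of 10 to 60, and 0 had every one below, where 10.2% did.

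**Figure D2:**
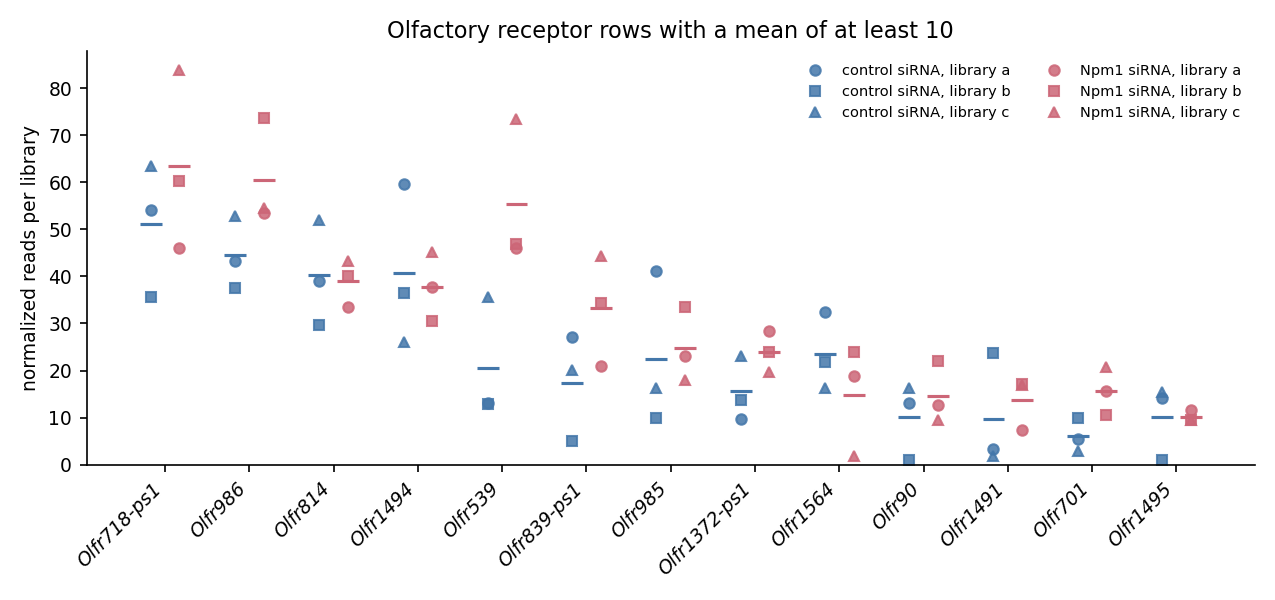
Normalized reads per library (reads divided by the library's scaling factor) of the 13 members with a mean of at least 10; each symbol is 1 library, the short line is the mean of the 3 libraries of a group, control siRNA in blue and Npm1 siRNA in red. Groups are apart in Olfr986, Olfr539 and Olfr701, and overlap in the other 10.

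The remaining tested members overlapped between groups. Olfr839-ps1 had 27.1, 4.94 and 20.2 normalized reads in control and 21, 34.4 and 44.3 after Npm1 siRNA (log2 0.94, standard error 0.64, the authors' deposited table). Olfr1564 had 32.5, 21.7 and 16.4 in control and 18.9, 23.9 and 1.88 after Npm1 siRNA, so that library c alone held the lowest value by far (log2 -0.66, standard error 0.76, the authors' deposited table). Olfr1372-ps1, a transcribed pseudogene of chromosome 11, had 9.75, 13.8 and 23.1 in control and 28.3, 23.9 and 19.8 after Npm1 siRNA. Only its control c lay within the range of the knockdown libraries.

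Among the least covered of the 13, single libraries came close to 0. Olfr90, at the first position of the chromosome 17 cluster, had 13, 0.988 and 16.4 in control and 12.6, 22 and 9.42 after Npm1 siRNA. Olfr1495 had 14.1, 0.988 and 15.4 in control and 11.5, 9.55 and 9.42 after Npm1 siRNA. Control b was the lowest library in both genes. In Olfr1491, which lies near Olfr1495, control b was instead the highest, with 3.25, 23.7 and 1.92 in control and 7.34, 17.2 and 16.9 after Npm1 siRNA. On the log2 scale these 3 stood at 0.54, 0.00193 and 0.52 by the authors' deposited table, with standard errors of 0.90 to 0.97.

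Just below the threshold came Olfr153 with a mean of 9.80, Olfr1127-ps1 with 9.42, Olfr91 with 7.99, Olfr510 with 7.71, Olfr984 with 7.70 and Olfr981 with 5.51. Olfr153 and Olfr1127-ps1 are neighbours in the chromosome 2 cluster. Olfr1127-ps1 and Olfr510 each had 0 reads in control a, while control c had 20 reads of the former and 17 of the latter. The 6 log2 fold changes ran from -0.57 in Olfr984 to 0.31 in Olfr1127-ps1 in the authors' deposited table, with standard errors of 0.94 to 1.16.

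Reads of the sparse members often came from 1 library. Of the 138, 34 had a single read, 15 of them in control and 19 in Npm1 siRNA libraries, and 73 had all their reads in 1 library. Of all rows with a mean below 10, 12.1% had a single read. Reads in all 6 libraries were found for 17 members, among them all 13 with a mean of at least 10, where 31.0% of the 14183 rows with a mean of at most 60 had them. With 3 to 5 reads in all, 22 of 35 members (62.9%) had them in 1 library, where 54.9% of all 2144 such rows did. With 6 to 12 reads, 7 of 28 members (25%) did, where 17.8% of 2409 rows did. With 13 to 60 reads, 1 of 17 members did, Olfr76, where 15 of 4009 rows (0.374%) did. The libraries carry no molecular identifiers, so reads of 1 library need not be separate molecules, and counting intervals would cover counting error only.

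The members with the highest and lowest fold changes had reads in 1 group only, in 1 to 3 of its libraries. Olfr76 had 15 reads, all in Npm1 siRNA c, and Olfr692 had 12, also all in Npm1 siRNA c. Olfr1490 had 2, 6 and 3 reads in Npm1 siRNA a, b and c and 0 in control. Against the floor of 3 reads over the group at 0, these were at least 4.86-fold, 3.88-fold and 3.56-fold higher after Npm1 siRNA. In the other direction, Olfr1324 had 2 and 8 reads in control a and b, Olfr695 had 9 in control b, and Olfr1351 had 4 in control a and 4 in control b. These were at least 3.43-fold, 3.09-fold and 2.75-fold lower after Npm1 siRNA. The spread between the 3 libraries of the group with reads was wider than its mean in Olfr76, Olfr692, Olfr695 and Olfr1324. All 6 bounds describe these libraries and not the conditions.

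Reads were found only after Npm1 siRNA for 50 members and only in control for 31, all of them among the 125 with a mean below 10, and in both groups for 57. Over all 10828 rows with a mean below 10, 20.5% had reads only after Npm1 siRNA and 22.1% only in control. Of these rows 12.1% had a single read, against 34 of the 125 members, and a single read is always one-sided. The shares are thus not matched for read count. Each one-sided member met the rule through the group where it has reads, and 34 of them rest on a single read, so these counts are a description. Positive fold changes in the authors' deposited table numbered 81 of 138 (58.7%), where the share was 48.4% over all 25112 rows with reads and 45.8% over those with a mean below 10. Among the 13 tested members 10 were positive, where 50.4% of all tested genes were, with a median of 0.44 on the log2 scale, and over the 3355 rows with means of 10 to 60 the share was 43.8% and the median -0.09. The share over all members varied with the libraries kept. Without Npm1 siRNA a, b or c, 53.8%, 53.1% and 47.9% of the members left with reads were higher after Npm1 siRNA. Without control a, b or c the shares were 63.1%, 66.1% and 59.2%. Leaving out a library also removes the members seen only there, all with the same sign, so part of these shifts was fixed in advance. The median over all 138 members was 0.48 in the authors' deposited table, and 0.0 once the 81 members with a group at 0 were set to their bound or, at up to 3 reads (55 of them), to no change. With 55 values set to no change and the rest of both signs, the 0.0 follows largely from this rule. It is no estimate of a shift.

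Summed over all members, the normalized reads were 488.8, 399.2 and 458.1 in control a, b and c and 479.1, 572.3 and 665.6 in Npm1 siRNA a, b and c. Npm1 siRNA a lay within the control range, and b and c above it. The means were 448.7 ± 45.5 and 572.3 ± 93.3 (SD, n = 3 each), a ratio of 1.28, with no test over the members. Without Olfr539 the ratio was 1.21. For the members with a mean below 10 the sums were 133, 161 and 115 in control and 124, 146 and 225 after Npm1 siRNA, so that only library c lay outside the control range. Over all 10828 rows with a mean below 10 the sum went the other way, 26023 ± 909 in control and 23363 ± 238 after Npm1 siRNA (SD, n = 3 each).

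**Figure D3:**
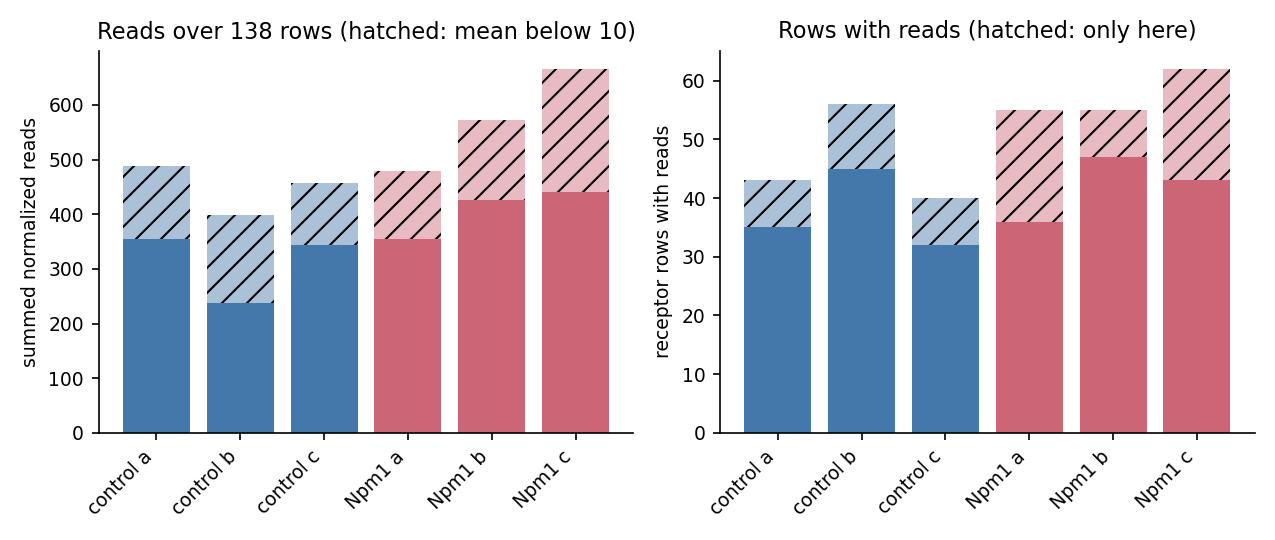
Left, summed normalized reads over the 138 members in each library, with the members below a mean of 10 hatched; right, the number of members with reads in each library, with those seen in no other library hatched. Sums run from 399.2 in control b to 665.6 in Npm1 siRNA c, and 19 members each were seen only in Npm1 siRNA a or only in Npm1 siRNA c, against 8 to 11 in the other libraries.

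Many members lay next to each other along the chromosomes. With receptor rows less than 1 Mb apart taken as a cluster, the 1353 rows with a single annotated position formed 63 clusters, 22 of them with 1 row, and 35 clusters held at least 1 member. Of the members, 74 (53.6%) had a member as the next receptor row on at least 1 side, compared with 142 of 1215 rows with a mean of 0 (11.7%). The largest cluster without any read had 44 rows. These shares are a description, since neighbours also share gene length, flanking genes and sequence.

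The chromosome 9 cluster from 37708964 to 40190134 held the most receptor reads. It has 101 rows, 15 with reads, and 96.0% of its summed mean came from its last 6 rows, Olfr981, Olfr982, Olfr983, Olfr984, Olfr985 and Olfr986. These 6 had 114, 63.2 and 80.8 normalized reads in control and 84.9, 128 and 88.5 after Npm1 siRNA. The groups overlapped, with control a and Npm1 siRNA b the highest. The nearest gene outside the family with a mean of at least 100 was Scn3b, a sodium channel subunit, 79083 bases from Olfr986.

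On chromosome 19 the cluster from 11826803 to 13921866 had 90 rows, 19 of them with reads. The 7 rows from Olfr1489 to Olfr1495 carried 88.9% of its summed mean, and Olfr1492-ps1 alone among them had no read. Their normalized reads were 76.9, 66.2 and 43.3 in control and 70.2, 66.9 and 80.0 after Npm1 siRNA, with only control c below the others by a wide margin. The nearest gene outside the family with a mean of at least 100 was the corepressor Tle4, 677902 bases from Olfr1495.

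The longest unbroken run was on chromosome 7, where 8 rows in sequence from Olfr697 to Olfr704 had reads (106740834 to 106870921). They carried 70.0% of the summed mean of a cluster of 80 rows. Their normalized reads were 13, 14.8 and 4.81 in control and 28.3, 27.7 and 42.4 after Npm1 siRNA. The groups did not overlap, with means of 10.9 ± 5.33 and 32.8 ± 8.30 (SD, n = 3 each). The run was not tested, and its choice is not independent of group: Olfr697, Olfr700 and Olfr704 belong to it through 2, 4 and 4 reads found only after Npm1 siRNA. Olfr701 supplied about as many of these reads as its neighbours together, and Olfr698, with 2 reads in control c and 1, 4 and 13 in Npm1 siRNA a, b and c, was next.

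**Figure D4:**
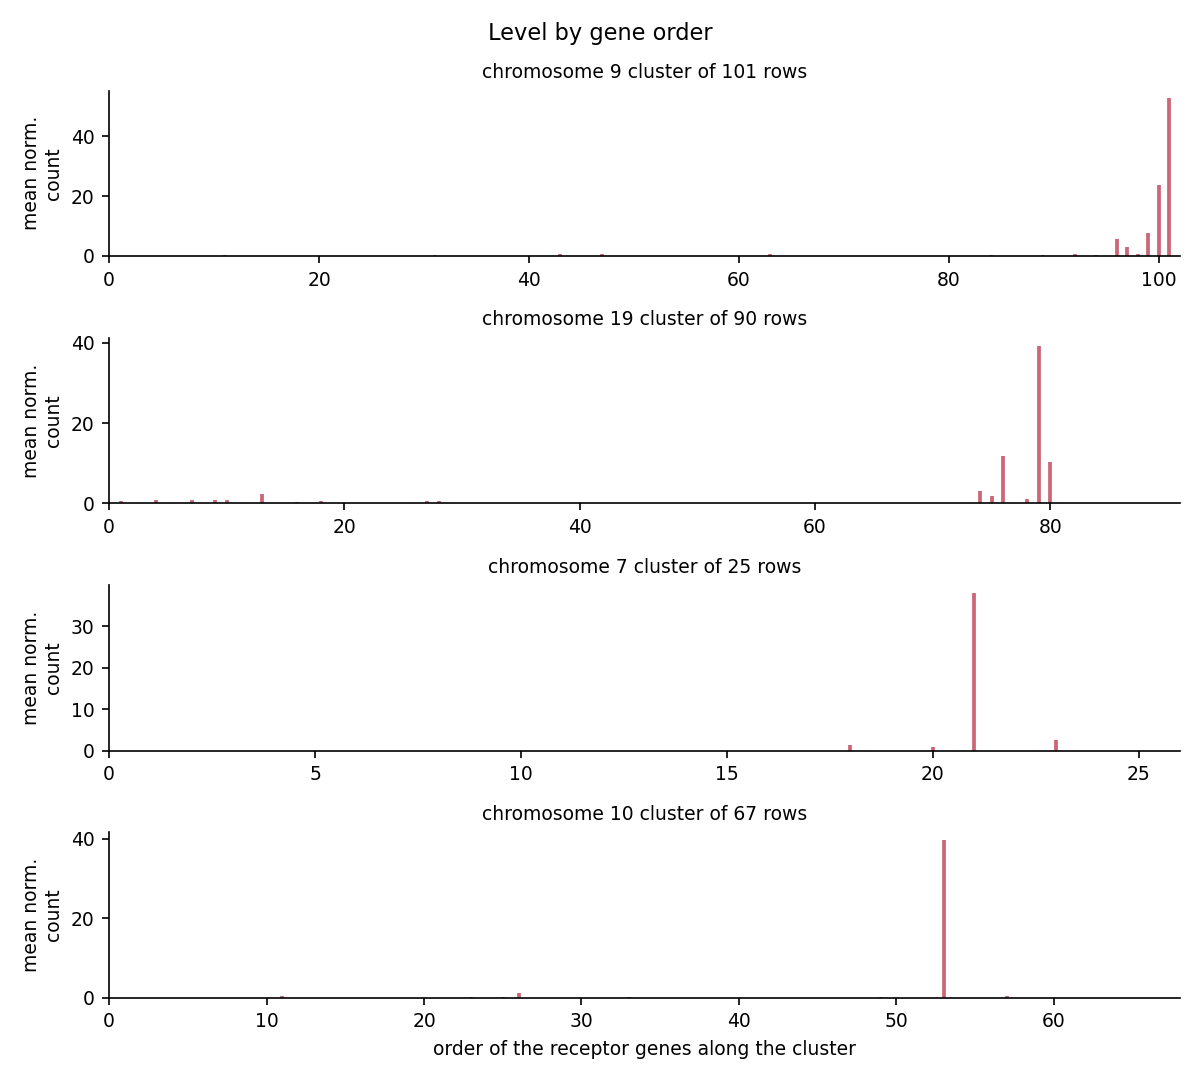
Mean normalized count of each receptor row by its order along 4 clusters, the ones with the highest summed mean among clusters of at least 25 rows. Reads sit at the end of the chromosome 9 cluster and in 1 stretch of the chromosome 19 cluster. In the plotted clusters of chromosomes 7 and 10, Olfr539 and Olfr814 hold 88.9% and 93.2% of the summed mean. The chromosome 7 cluster with Olfr697 to Olfr704 is a different one and is not plotted.

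By chromosome, the share of receptor rows with reads was 21.1% on chromosome 19, 17.5% on 17, 16.6% on 9, 15.4% on 10 and 9.62% on 7. It was 4.37% on chromosome 2, which has the most receptor rows, 343. On chromosome 5, 2 of the 3 receptor rows had reads. Chromosomes 3, 8 and 12, with 5, 5 and 1 receptor rows, had no read. Reads were found for 13 of 251 rows named as pseudogenes (5.18%) and for 125 of 1104 other rows (11.3%).

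The annotated exons of members covered a median of 3384 bases (quartiles 2125 and 5143), compared with 2573 (1330 and 3797) in rows with a mean of 0. The share with reads was 5.01%, 7.40%, 11.2% and 17.2% in 4 length classes of like size, from the shortest to the longest, and no member with a mean of at least 10 fell in the shortest. A longer exon set gives a read more bases to fall on, so length and expression cannot be told apart in these shares. Per kilobase of exon, Olfr1494 had the highest level, with a mean of 18.2 normalized reads, followed by Olfr986 (15.1) and Olfr985 (12.6), while Olfr539 had 3.31. The nearest gene outside the family with a mean of at least 100 was at a median of 157 kb from members and 343 kb from rows with a mean of 0. For the 13 members with a mean of at least 10 the median was 139 kb. It ran from 8804 bases for Olfr90 (Gabbr1) to 958651 for Olfr814 (Cd63), with Olfr718-ps1 at 21020 (Rnf216).

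**Figure D5:**
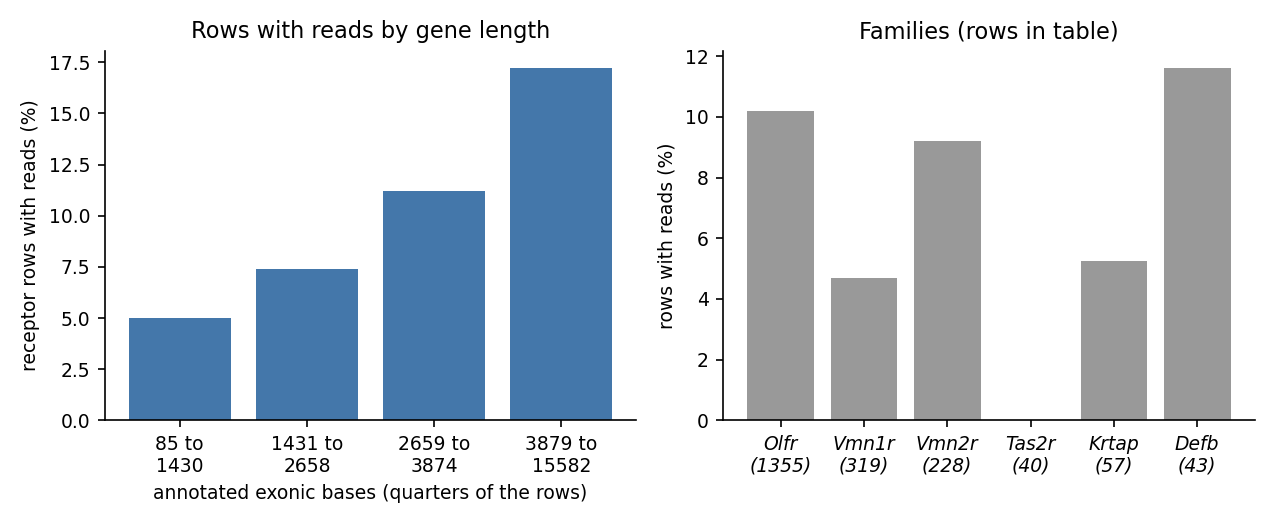
Left, percent of receptor rows with reads in 4 classes of annotated exonic length in bases, of like size; right, percent of rows with reads in 6 gene families, with the number of rows in brackets. The share rises from 5.01% in the shortest class to 17.2% in the longest, and is 10.2% for olfactory receptors (Olfr), 9.21% for Vmn2r and 4.70% for Vmn1r.

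Other clustered families had shares from 0 to 11.6%, and the differences from the olfactory receptors were not tested. Reads were found for 15 of 319 vomeronasal receptor rows of the Vmn1r kind (4.70%) and 21 of 228 of the Vmn2r kind (9.21%), for 1 of 16 trace amine receptors and for none of 40 bitter taste receptors (Tas2r). Keratin-associated proteins had reads in 3 of 57 rows (5.26%) and beta-defensins in 5 of 43 (11.6%). Formyl peptide receptors (Fpr) had reads in 0 of 7 rows, major urinary proteins (Mup) in 1 of 21 and Skint genes in 1 of 11. No row of these families passed the test. A mean of at least 10 was found for 1 Vmn1r, 1 Vmn2r and 1 Mup row. The share of rows with reads was 47.8% over everything measured.

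Genes that carry the receptor signal in olfactory neurons were partly present. Of 18 transduction genes, 10 were tested, 2 fell, none rose and 8 did not pass, with a median log2 fold change of -0.11; over all tested genes 4.30% were called. Pde4a, a cAMP phosphodiesterase, and Grk3, a kinase that desensitises the receptors, fell after Npm1 siRNA by 0.88 and 0.73 in log2 units (the authors' deposited table, Benjamini-Hochberg adjusted p = 0.0112 and 0.0423). The most abundant was the G protein subunit Gnb1, of general use in cells (log2 -0.10 by the authors' deposited table). Gnal, the olfactory G protein alpha subunit, and Adcy3, the olfactory adenylyl cyclase, had means of 308 and 229 in the authors' deposited table, with log2 values of 0.12 and -0.19.

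Of 13 genes for receptor export and folding, 9 were tested and none passed (median log2 -0.02). Hspa8, a constitutive chaperone, was the most abundant (log2 -0.01 in the authors' deposited table), followed by Reep1 (0.02), which helps receptors to the surface. Rtp2, a chaperone dedicated to these receptors, had a mean of 20.7 in the authors' deposited table and did not pass (log2 -0.34, adjusted p = 0.880).

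Of 13 regulators of receptor gene choice, 9 were tested, 1 rose and 8 did not pass (median log2 -0.08), again beside 4.30% called over all tested genes. Ldb1, which with Lhx2 bridges receptor enhancers in olfactory neurons, rose by 0.20 in log2 units (adjusted p = 0.0339), and Bptf, a remodeller subunit, was at 0.15 (adjusted p = 0.0684), by the authors' deposited table. Ldb1 serves many cell types and had a mean of 5206, while its partner Lhx2 had a mean of 15 (log2 -0.15), in the authors' deposited table. Kdm1a, the demethylase that opens the chosen receptor, was at -0.05 in the authors' deposited table.

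The chromatin genes listed for the silencing of receptor clusters were all measured and none passed. Their part in silencing receptors in these cells was not tested. Of 13, all were tested, with a median log2 fold change of 0.06 and 4.30% called over all tested genes. Trim28, the cofactor of zinc finger repressors, and Atrx, a remodeller of heterochromatin, were the most abundant and stood at log2 0.14 and 0.12, by the authors' deposited table. Suv39h1, an H3K9 methyltransferase, was nearest to a call among them (log2 -0.47, adjusted p = 0.0627), by the authors' deposited table. The lists other than transduction had 9 (export and folding), 9 (gene choice) and 13 (silencing) tested genes. At an unadjusted p under 0.05 they held Ldb1, Bptf, Reep6, Atf5, Ehmt1, Suv39h1, Cbx5 and Trim28. Over all tested genes 16.3% reached this level, and the difference was not tested. The lists share genes: Adcy3, Atf5 and Smchd1 stand in more than 1 of these 4, and most mature neuron markers, Lhx2 and Ebf1 also stand in one of them.

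Markers of other cell types were present at uneven levels. Male germ cells, in which some receptors are transcribed, were represented by Prm1 and Acrv1 with sums of 0 to 3.95 normalized reads per library, and Prm2, Tnp1 and Odf1 were at 0. The 5 fibroblast markers with reads, led by Col1a1 and Thy1, summed to 35.8, 53.4 and 65.4 in control and 24.1, 25.8 and 49.0 after Npm1 siRNA, and Postn and Dcn were at 0; this sum was lower in 2 of the 3 Npm1 siRNA libraries than in any control, and its part in the results was not tested. Of 5 markers of the immature olfactory neuron 3 were tested and none passed, with Ebf1 (mean 364, log2 -0.24) and Stmn3 (mean 121, log2 0.43) above every receptor gene in mean by the authors' deposited table, and Gap43 and Gng8 at means below 10. In these bulk samples, more cells with a receptor on and more RNA per cell cannot be told apart.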

How the data were processed

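Polyadenylated RNA of 6 samples was sequenced. FastQC, Trimmomatic 0.36, STAR and DESeq2 were used with GRCm38 (mm10), per the submitters' processing notes; the sources used here do not give the counter, its annotation or its strand setting. Per the file headers, the authors deposited 1 comparison with a mean normalized count (a signal value: counts divided by scaling factors, averaged over 6 libraries), a log2 fold change and an unadjusted p-value per gene. Groups came from sample titles. Members and gene lists were chosen with earlier results of these data known. Benjamini-Hochberg adjustment of the authors' p-values took in all 14284 genes whose mean reached 10, and genes were called under 0.05. Standard errors are the log2 fold change over the normal quantile of its p. Reads per library were recovered by exact search, first tested on simulated data. A count model was not fitted, since rows with means above 60 were not split into reads. Total depth per library is unknown. Genes named were Npm1, all members with a mean of at least 10, the 6 next below, members with an unadjusted p under 0.05, the 3 highest and 3 lowest fold changes among members with a mean of at least 1, and per list the called genes and the 2 most abundant (1 list gene and 1 sequence are not reported here); neighbours in named clusters, and Olfr1373, Olfr698, Rtp2, Lhx2, Suv39h1 and the list genes at an unadjusted p under 0.05, were named after their values were seen. Positions are from GENCODE M21 (GRCm38), in which 1355 of 1355 rows were found. Software was Python 3.11.15, pandas 2.3.3, NumPy 2.4.6 and SciPy 1.17.1. Alternatives are given in the closing section.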

Additional observations from a re-analysis of the deposited data

How the results depend on the processing

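No olfactory receptor gene was called with no filter, a filter at a mean of 50, recentring on the median (a shift of 0.0019) or Bonferroni adjustment. Only 2 receptor rows reached a mean of 50, and Olfr539 was not among them. Bonferroni adjustment is stricter than the main one and could not have added a call, and the recentring shift was small. Over all genes, 614 calls became 116 with Bonferroni adjustment. At a mean of at least 0.5, 84 receptor rows remained of 138; leaving out each library in turn, an alternative chosen after seeing the data, left 119 to 130. The median log2 fold change of the members was 0.31 at means of at least 1 and 0.34 without members that overlap another gene's exon, against 0.48. Leaving out each library, the share of members higher after Npm1 siRNA ran from 47.9 to 66.1% and the log2 ratio of their summed reads from 0.23 to 0.46. Of the 25 named members, 19 had reads in both groups; the sign of 9 held whichever library was left out, and changed in 10. In the other 6, with reads in 1 group, the sign could not turn. Olfr76 and Olfr692 without Npm1 siRNA c, and Olfr695 without control b, had no read left and gave no value. No paired analysis was possible because the recovered libraries carry no replicate number. Depth limits all members below a mean of 10.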
